A study of Mus musculus with 10 samples.

Results

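The genes described here were the nuclear genes of complexes II, III, IV and V of the mitochondrial respiratory chain, measured by RNA sequencing in mouse neutrophils with and without the intermediate filament protein vimentin. Members were taken by symbol from the 4 deposited comparison tables, with symbols that began with Sdha to Sdhd, Uqcr, Cox4 to Cox8, Cox10 to Cox19 or Atp5, together with Cyc1. The rule found 55 of the 13091 genes listed. By prefix and known role they were 4 subunits of complex II, 9 of complex III, 13 of complex IV (the supercomplex factor Cox7a2l included) and 15 of complex V, 41 subunits in all. The other members were the 4 Sdhaf genes, which assemble complex II, 8 assembly factors of complex IV (Cox10, Cox11 and Cox14 to Cox19), and Atp5s and Atp5sl, which carry the Atp5 prefix but are not counted as subunits of the ATP synthase here.

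The neutrophils were matured in culture from progenitors immortalised with ER-HoxB8, a HoxB8 fused to the estrogen receptor that holds cells at the progenitor stage while estradiol is present. All 4 groups carry this construct and come from bone marrow of the 129-SVEV strain. They were unstimulated Vim+/+ neutrophils, Vim+/+ neutrophils after 1 hour with 25 ng/mL LPS (a bacterial endotoxin), and Vim-/- neutrophils in the same 2 conditions. Each condition held 2 Vim+/+ and 3 Vim-/- libraries, labelled as biological replicates, 10 libraries in total. The study derived the Vim-/- lines from germline knockout mice, whereas the sample labels call their genotype a vimentin KD. The study made several clonal progenitor lines of each genotype, and which line gave each library was not given in the sources used here. Each line is of 1 genotype, so that differences between genotypes and between the lines used cannot be told apart, and p-values measure only the spread between these libraries. The number of donor mice and their age were not given in the sources used here.

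Complex II (succinate dehydrogenase) passes electrons from succinate to ubiquinone, complex III passes them from ubiquinol to cytochrome c, and complex IV (cytochrome c oxidase) passes them from cytochrome c to oxygen. Complexes III and IV pump protons as they do so, and complex V (ATP synthase) uses the returning protons to make ATP. Complex II is wholly encoded in the nucleus, whereas III, IV and V each combine nuclear subunits with mitochondrially encoded ones, so that subunits from both genomes have to be supplied together. Mature neutrophils have few mitochondria and draw most of their ATP from glycolysis.

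The tables hold 1 row per gene with a mean normalised count over all libraries, a log2 fold change with its standard error, and an adjusted p from the authors' DESeq2 model. Values per library were not analysed here, so the standard errors are the one measure of how libraries varied, the depth is unknown, and no member can be shown library by library. Genotype fold changes are given as Vim-/- over Vim+/+. A gene is said to have passed, risen or fallen when the adjusted p was under 0.05. Intervals are 95% intervals from the standard errors.

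The labels held for the deleted gene, since Vim itself, with a mean normalised count of 39926, was lower in Vim-/- neutrophils by a log2 fold change of -13.56 ± 0.33 (SE) unstimulated and -12.44 ± 0.24 (SE) with LPS. All 14 neutrophil markers looked for were listed, at a median mean normalised count of 107915, and the T cell marker Cd3e was not. Markers of cell types and stages were counted in the unstimulated genotype comparison, where 12.6% of all genes tested were higher and 6.15% lower, and no list was tested. Of the 14 neutrophil markers, 6 were higher in Vim-/- neutrophils (Itgam, Cxcr2, Mmp8, Camp, Ngp and Lcn2) and none lower. Of 5 promyelocyte markers, Prtn3 (-1.14) and Ctsg (-2.55) were lower, and of 4 listed progenitor markers, Cd34 and Gata2 were lower. Of 6 cycling cell markers, 3 (Mki67, Top2a and Ccnb1) were higher, while 2 of 6 monocyte and macrophage markers, 1 of 3 listed mast cell and basophil markers and 1 of 2 listed lymphocyte markers (Nkg7) were lower. These libraries are of bulk RNA, so that fewer cells of a type and less RNA per cell cannot be told apart.

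The level of the members set which of them could be compared. Mean normalised counts of the 41 subunits ran from 17.5 to 27379 with a median of 4947, and 39 of the 41 were above 2000, against a median of 907 over all genes. The 12 assembly factors were lower, with a median of 486. Levels were also put on the scale of mean normalised count per kb of principal transcript. This scale compares genes with each other only as far as the annotated transcript is the one expressed. On it the highest member was Cox4i1 at 24316 per kb, followed by Cox8a at 17803 and Cox6a1 at 15447, all nuclear subunits of complex IV. Complex V subunits had a median of 6883 per kb, complex III of 4571 and complex II of 2936. Atp5b, the catalytic beta subunit of the F1 head, stood at 14290 per kb. Atp5g1 stood lowest of complex V at 539 per kb, a value that rests on an annotated principal transcript of 4715 bases for a gene whose sister genes Atp5g2 and Atp5g3 have 731 and 723.

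Isoforms of a subunit differed in level on the same per kb scale. Cox4i1 stood at 24316 per kb, whereas Cox4i2, the hypoxia-responsive isoform of lung, stood at 23.9 with a mean normalised count of 17.5. Cox7a1, the isoform of heart and skeletal muscle, stood at 230 per kb with a mean normalised count of 90.3, while Cox7a2 stood at 8588 and Cox7a2l at 7858. Among the genes of the c ring of the ATP synthase, which encode the same mature protein, Atp5g3 stood at 9042 per kb and Atp5g2 at 3390, beside the uncertain value of Atp5g1. Beside Cox4i2 and Cox7a1, Sdhaf3 (28.5) and Cox16 (55.3) were the only members with a mean normalised count under 100.

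**Figure D1:**
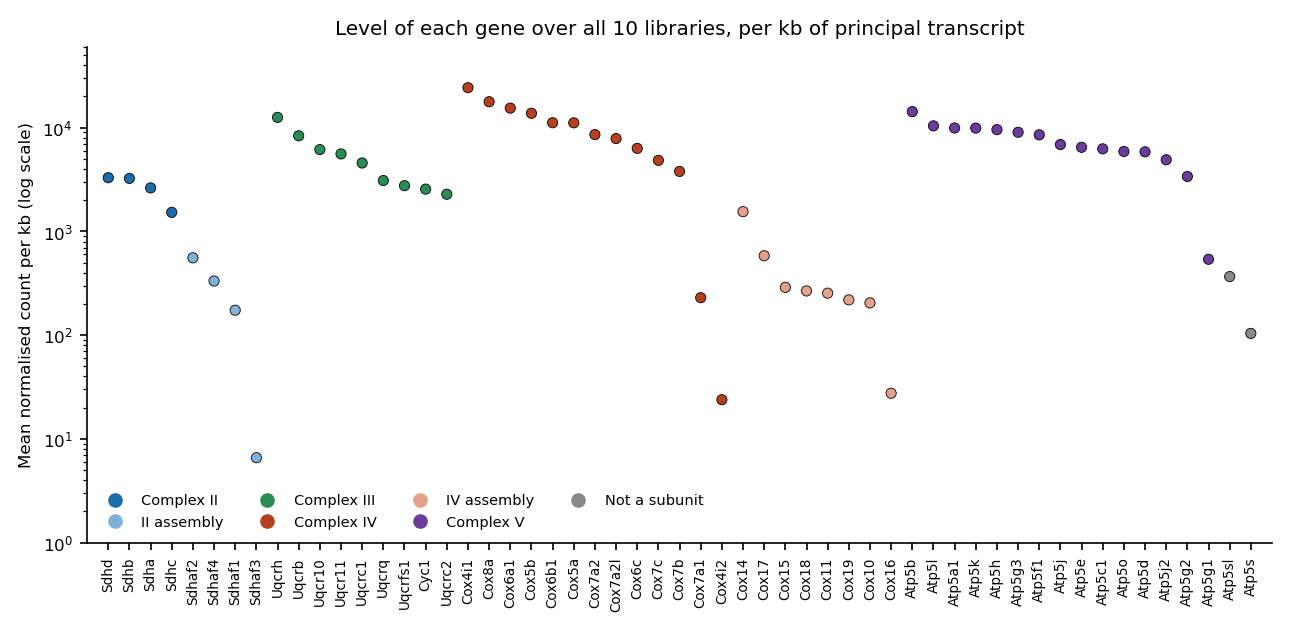
Mean normalised count over all 10 libraries per kb of principal transcript (vertical axis, log scale) for each of the 55 members (horizontal axis), coloured by complex and role. Nuclear subunits lie at or above 1528 per kb apart from Cox7a1, Cox4i2 and Atp5g1, and the assembly factors lie between 6.59 and 1552 per kb.

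Promoters were searched for the sites most often named for nuclear respiratory genes, namely NRF1 (GCGCANGCG), YY1 (AANATGGCG), the ETS core bound by GABP (CCGGAAG), the ERR site (AAGGTCA) and the SP1 box (GGGCGG). RefSeq promoters on GRCm38.p6, each 300 bases long from 250 before to 50 after a start, were matched for 44 of the 55 members (49 promoters), and both strands were read. No 2 of these motifs shared a base in any of the 49 promoters. The letters of the NRF1 site were present in 28.6% of the member promoters and in 12.7% of the 12936 promoters of the genes in the tables. For the ETS core the shares were 40.8% and 17.2%, for YY1 14.3% and 4.91%, for the ERR site 10.2% and 3.40%, and for the SP1 box 42.9% and 59.0%. The ETS core stood in 34.3% of subunit promoters and in 72.7% of the 11 promoters of assembly factors. These are counts of letters and do not show that a factor was bound.

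Stretches of 50 upstream bases that touch no annotated exon are shown for subunits whose values are given below, with the letters of 1 motif match in capitals, read 5′ to 3′ on the strand of the gene. Atp5h (a stalk subunit of complex V, chr11:115420032-115420081, minus strand), Atp5l (a membrane subunit of complex V, chr9:44920943-44920992, minus strand) and Cox6a1 (complex IV, chr5:115349047-115349096, minus strand) show NRF1 letters, and Uqcrh (complex III, chr4:116075072-116075121, minus strand), Uqcr11 (complex III, chr10:80406860-80406909, minus strand) and Sdhd (complex II, chr9:50603860-50603909, minus strand) show ETS letters. The Atp5l stretch also holds an ETS match, left in lower case.
Atp5h: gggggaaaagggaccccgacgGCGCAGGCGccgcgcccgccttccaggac
Atp5l: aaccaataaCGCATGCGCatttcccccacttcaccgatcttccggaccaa
Cox6a1: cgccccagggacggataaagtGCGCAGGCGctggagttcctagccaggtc
Uqcrh: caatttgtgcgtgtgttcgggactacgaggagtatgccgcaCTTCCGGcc
Uqcr11: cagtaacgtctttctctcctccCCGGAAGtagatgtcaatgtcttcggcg
Sdhd: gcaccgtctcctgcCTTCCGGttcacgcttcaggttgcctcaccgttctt
The first 5 of these genes were lower in unstimulated Vim-/- neutrophils and Sdhd did not pass. Over the 44 members with a promoter, 7 of 14 with NRF1 letters and 12 of 30 without them passed, 10 of 19 and 9 of 25 for the ETS core, 3 of 6 and 16 of 38 for YY1, 2 of 5 and 17 of 39 for the ERR site, and 6 of 20 and 13 of 24 for the SP1 box, where 6.15% of all genes tested passed as lower (a description with no test).

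The first comparison asked how the 2 genotypes differed before any stimulus. Of the 41 subunits of complexes II to V, 21 were lower in Vim-/- neutrophils, with ratios to Vim+/+ between 0.563 and 0.770, and none of the 12 assembly factors among the members passed. Of the 55 members, 22 fell and none rose (40.0% of the members lower, against 6.15% of 12837 genes tested that fell and 12.6% that rose). The median log2 fold change was -0.38 over the members and -0.40 over the 41 subunits, while over all genes it was 0.08. A negative value was seen in 39 of the 41 subunits. The count of 22 became 6, 4 or 0 under the transcript length and spread alternatives. Of the 12 assembly factors, 5 had a negative value and none passed, with a median of 0.02 and 2 at an unadjusted p under 0.05. No member that passed had a log2 fold change beyond -1, a size that 1.67% of all genes passed in the lower direction.

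In complex IV, 9 of 13 subunits fell and all 13 were negative, with a median of -0.55. The lowest log2 fold change among the 9 was that of Cox7a2l, which joins complexes III and IV into supercomplexes, with a log2 fold change of -0.83 ± 0.21 (SE) and an adjusted p of 0.00108 (deposited DESeq2 Wald test). Its level in Vim-/- neutrophils was thus 0.563 times that in Vim+/+ neutrophils, with an interval of 0.424 to 0.748. Cox4i1 (chr8:120668225-120674209), the member of complex IV with the highest level per kb and the subunit through which ATP slows the enzyme, fell by 0.69 on the log2 scale (ratio 0.620, interval 0.504 to 0.764, adjusted p = 0.000159). Cox6c, a small subunit that crosses the membrane, had a ratio of 0.652, and Cox5a and Cox5b, which sit on the matrix side, had ratios of 0.683 and 0.671. Cox7a2 (0.669), Cox6b1 (0.700), Cox6a1 (0.748) and Cox8a (0.770) also fell.

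Of the 4 complex IV subunits that did not pass, Cox7b, the only member on the X chromosome, had a log2 fold change of -0.35 and an adjusted p of 0.111, and Cox7c had -0.35 with an adjusted p of 0.279. The value of Cox7a1 was the lowest of all members at -1.03, but its interval ran from -2.49 to 0.43 at a mean normalised count of 90.3. For Cox4i2, at 17.5, the interval ran from -2.89 to 2.33. No change of the minor isoforms could be detected at these counts.

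In complex V, 7 of 15 subunits fell and all 15 were negative, with a median of -0.38. The clearest was Atp5h, the d subunit of the peripheral stalk that holds the F1 head still, with a log2 fold change of -0.74 ± 0.16 (SE), a ratio of 0.598 (interval 0.478 to 0.747) and an adjusted p of 0.000147. Of the other stalk subunits, Atp5j (coupling factor F6) fell with a ratio of 0.757, whereas Atp5o (the oligomycin sensitivity protein, adjusted p = 0.0801) and Atp5f1 (b, adjusted p = 0.287) did not pass. The 3 small membrane subunits Atp5k (e), Atp5l (g) and Atp5j2 (f), which shape the dimers of the enzyme, all fell, with ratios of 0.684, 0.719 and 0.724. In the F1 head, the gamma subunit Atp5c1 (0.738) and the delta subunit Atp5d (0.768) fell, while the epsilon subunit Atp5e had -0.37 with an adjusted p of 0.184. The subunits that form the catalytic ring of the head were among the least changed, with log2 fold changes of -0.33 for Atp5a1 (alpha, adjusted p = 0.0591) and -0.25 for Atp5b (beta, adjusted p = 0.220). None of the 3 c ring genes passed, with -0.43 for Atp5g2, -0.34 for Atp5g1 and -0.17 for Atp5g3, and 1 of them, Atp5g2, had an unadjusted p under 0.05.

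In complex III, 4 of 9 subunits fell, with a median of -0.40. Uqcrh, the acidic hinge protein that helps cytochrome c dock, was the clearest, with a log2 fold change of -0.74 ± 0.19 (SE), a ratio of 0.598 (interval 0.460 to 0.777) and an adjusted p of 0.00166. Uqcr11 (0.665), Uqcrq (0.707) and the core protein Uqcrc1 (0.732) also fell. The other core protein, Uqcrc2, had a log2 fold change of 0.0004 (interval -0.30 to 0.30). The nuclear subunits that carry redox groups did not pass, with -0.40 for Cyc1, the cytochrome that hands electrons on to cytochrome c (adjusted p = 0.0682), and -0.33 for Uqcrfs1, the Rieske iron-sulfur protein (adjusted p = 0.154). Uqcr10 (-0.25) and Uqcrb (-0.22) did not pass either.

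In complex II, 1 of 4 subunits passed. Sdhb, its iron-sulfur subunit, fell with a log2 fold change of -0.52 ± 0.19 (SE) and an adjusted p of 0.0368, giving a ratio of 0.695 (interval 0.536 to 0.902). Sdha, the flavoprotein to which succinate binds, was at 0.11 with an interval of -0.21 to 0.42. The membrane anchors Sdhc (-0.31, adjusted p = 0.219) and Sdhd (-0.10, adjusted p = 0.737) did not pass. The difference between the complexes was not tested.

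The 8 complex IV assembly factors among the members were spread around 0. Cox15 (0.36) and Cox10 (0.12), which make the heme A of the enzyme, and Cox18 (0.27), an insertase, had positive values, as had Cox16 (0.20) and Cox11 (0.01), whereas the copper chaperones Cox17 (-0.48, adjusted p = 0.0606) and Cox19 (-0.48, adjusted p = 0.309) and the translation partner Cox14 (-0.18) had negative ones. In complex II assembly the lowest value was that of Sdhaf1, -0.79 with an adjusted p of 0.0571, followed by Sdhaf2 at -0.34, and Sdhaf4 (0.03) and Sdhaf3 (0.31, interval -2.02 to 2.63) were positive. The standard errors of these 12 genes had a median of 0.330, about as wide as the fall of many subunits, whose own median standard error was 0.161. Of the genes that carry only the prefix, Atp5sl fell (-0.76 ± 0.26 SE, adjusted p = 0.0202) and Atp5s did not pass (-0.67, adjusted p = 0.392).

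**Figure D2:**
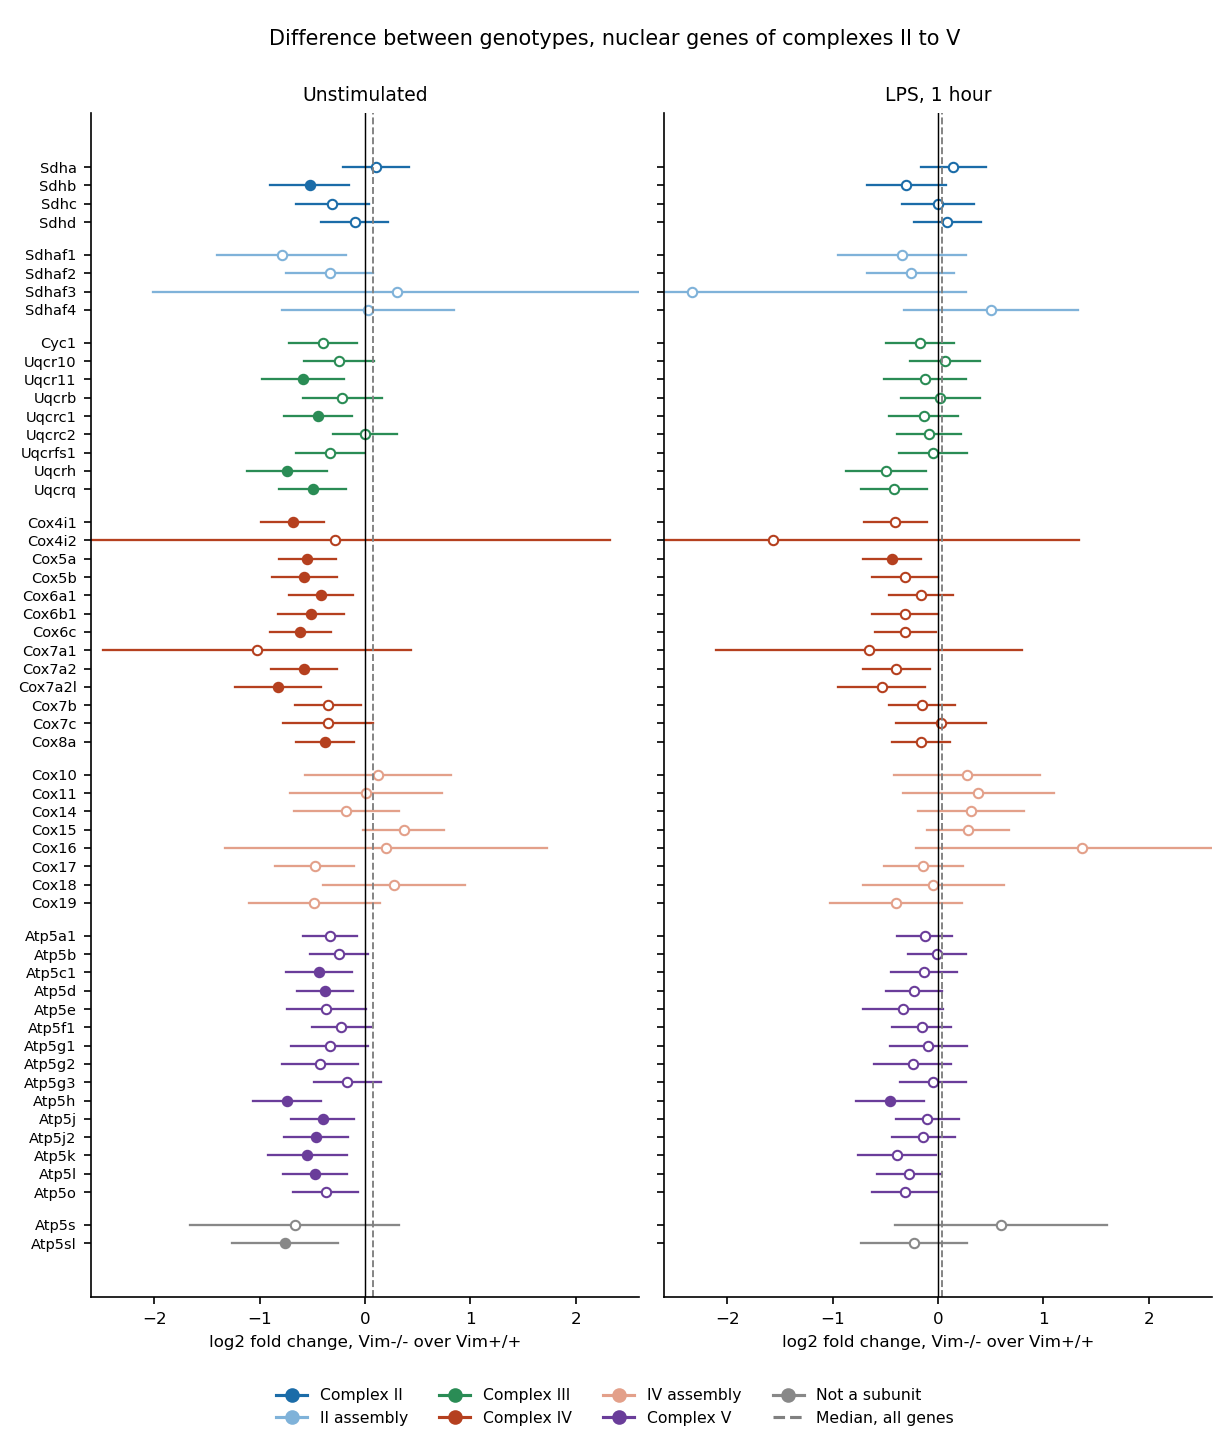
Log2 fold change of Vim-/- over Vim+/+ neutrophils (horizontal axes) for each of the 55 members (rows, grouped by complex and role), unstimulated on the left and after 1 hour with LPS on the right. Lines are 95% intervals (a few run past the axis), filled points passed at an adjusted p under 0.05 and the dashed line is the median of all genes. In the left panel 22 points are filled, all below 0, and in the right panel 2.

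Transcript length moved with this difference. Over the 12320 genes with a GENCODE M21 transcript, longer principal transcripts went with higher unstimulated genotype fold changes (Spearman's rho 0.31 across genes, which share the same libraries). In the shortest of 20 equal bins of genes, up to 765 bases, the median log2 fold change was -0.34, and in the longest bin it was 0.52. Of the 55 members, 22 lay in that shortest bin, and the subunits' median principal transcript was 809 bases against 2831 for all genes. When each gene was centred on genes of like longest transcript, the members' median went from -0.38 to -0.21 and 6 members passed as lower, a share to be read against 6.3% of all genes under that centring. These 6 were Atp5l, Cox6c, Cox5a, Cox17, Atp5g1 and Atp5sl. With the principal transcript in place of the longest, a choice made after the values were seen, the median was -0.18 and 4 members passed (Cox7a2l, Cox17, Atp5g1 and Atp5sl), against 6.08% of all genes. Cox17 and Atp5g1 had not passed in the deposited test, and their annotated transcripts of 3690 and 4715 bases set them against long genes. The calls of Atp5l, Cox6c and Cox5a used longest transcripts of 6310, 3038 and 1818 bases, where their principal transcripts have 544, 738 and 645, and these 3 calls were lost with the principal transcript. Under each centring 34 of the 41 subunits were negative.

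**Figure D3:**
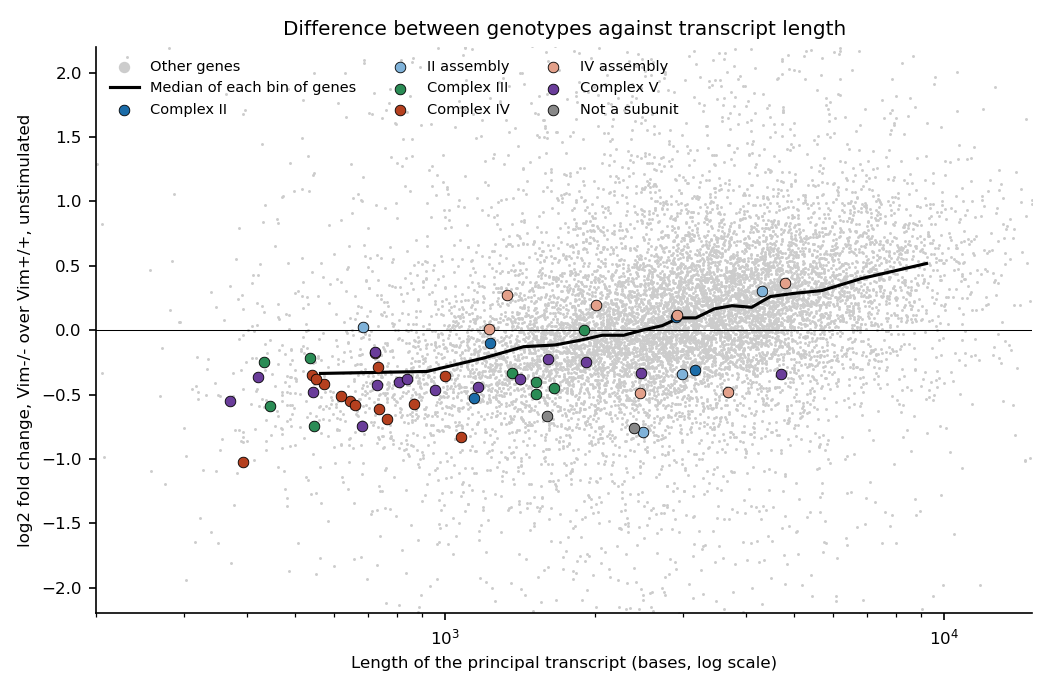
Log2 fold change of unstimulated Vim-/- over Vim+/+ neutrophils (vertical axis) against principal transcript length (horizontal axis, log scale), with the members coloured by complex and role, other genes in grey and the median of 20 equal bins of genes as a black line (1012 genes lie outside the axes). The line rises from -0.34 to 0.52, 12 of the 13 complex IV subunits lie below it, and 6 of the 8 complex IV assembly factors lie above it.

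The deposited test also spread widely in this comparison. The Wald statistics of all genes had a robust spread of 1.83, where 1 is the spread under no difference, and the study's model left 2 residual degrees of freedom after 4 groups and 4 covariates of unwanted variation. Once the statistics were centred on their median and divided by that spread, no member passed and 0.542% of all genes passed as lower. In the deposited test 30 members had an unadjusted p under 0.05, where 2410 of 12837 genes tested passed in either direction even after adjustment. The calls above therefore rest on the standard errors as deposited, and the part of transcript length and of the marker lists in them was not tested.

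Other gene families were counted in the same way, against 6.15% of all genes tested that fell and 12.6% that rose. Of 44 genes with the Nduf prefix (complex I), 17 fell and none rose, with a median of -0.43. The prefix also takes in Ndufa4, which is counted below among the partners of complex IV, and does not set assembly factors apart. Of 77 genes of the mitochondrial ribosome, 12 fell, with a median of -0.34, and of 80 genes of the cytosolic ribosome, 71 fell, with a median of -0.71. After centring on like longest transcripts, 5 of the Nduf genes, 7 of the mitochondrial and 56 of the cytosolic ribosomal genes passed as lower. Under that centring 6.3% of all genes passed as lower. Whether the complexes II to V differ from these families was not tested.

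Partners of complexes III, IV and V outside the symbol rule were counted against the same shares of all genes, 6.15% lower and 12.6% higher. None of 7 tested genes for complex III assembly and cytochrome c passed, with 1 at an unadjusted p under 0.05, and Cycs, the cytochrome c of somatic cells, was at -0.16. For complex IV, 2 of 18 listed genes fell and none rose. These were the assembly factor Surf1 (-0.56, adjusted p = 0.0191), which also fell with LPS (-0.61, adjusted p = 0.0136), and Cmc2 (-0.89, adjusted p = 0.000762), a factor of complex IV biogenesis. For complex V, 2 of 9 fell, Atpif1 (-0.45), the inhibitor that blocks ATP hydrolysis, and 2010107E04Rik (-0.77), the symbol of a small protein attached to the enzyme. The assembly factor Atpaf1, a chaperone of the beta subunit, rose, with 1.39 ± 0.40 (SE) and an adjusted p of 0.00532 unstimulated and 1.67 with LPS (adjusted p = 0.00182). The mitochondrial phosphate carrier Slc25a3 (-0.20) and the ADP/ATP carriers Slc25a4 (-0.19) and Slc25a5 (-0.06) did not pass.

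Among the mitochondrially encoded subunits of III, IV and V, matched by name, CYTB fell (-0.40 ± 0.15 SE, adjusted p = 0.0460), also with LPS (-0.51, adjusted p = 0.0110), and COX1 did not pass (-0.16, adjusted p = 0.391). COX1 fell under LPS in Vim-/- neutrophils (-0.41, adjusted p = 0.0170). In Vim+/+ neutrophils the LPS response of COX1 was -0.27 without passing, and the difference between these responses, -0.14, did not pass. COX2, COX3 and ATP6 had -0.39, -0.33 and -0.37 without passing, and ATP8 had 0.18 at a mean normalised count of 25.9. For the first 3, mean normalised counts were 427 to 531, beside 173056 for COX1, and all 4 are uncertain, since near-identical nuclear copies can take reads of mitochondrial genes. Of 11 listed regulators of respiratory genes, none passed in unstimulated neutrophils by the deposited test, and none had an unadjusted p under 0.05. Their log2 fold changes included 0.23 for Nrf1, 0.26 for Gabpa, -0.04 for Yy1, -0.09 for Esrra and -0.02 for Tfam, and Ppargc1a was not listed.

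The second comparison asked how the genotypes differed after 1 hour with LPS. The members' median was -0.16, 43 of 55 were negative, 2 fell and none rose, against 4.35% of genes tested that fell, and the members' share of 2 in 55 is near that background. Cox5a fell with a log2 fold change of -0.44 ± 0.14 (SE), a ratio of 0.738 (interval 0.612 to 0.891) and an adjusted p of 0.0201. Atp5h fell with -0.46 ± 0.16 (SE), a ratio of 0.728 (interval 0.582 to 0.910) and an adjusted p of 0.0488. Just outside the threshold were Cox4i1 (-0.41, adjusted p = 0.0637), Uqcrq (-0.42, adjusted p = 0.0738), Cox7a2l (-0.54, adjusted p = 0.0757) and Uqcrh (-0.50, adjusted p = 0.0763). All 15 complex V subunits were again negative, with a median of -0.16, complex IV had a median of -0.32, complex III of -0.13, and complex II was at 0.04. Centring on like longest transcripts left Cox5a as the only call, with the same longest transcript, and the principal transcript left none. Between genotypes with LPS, 1416 of 12837 genes tested passed in either direction, 559 of them lower. Of the markers in this comparison, 5 of 6 cycling cell markers and 2 of 14 neutrophil markers were higher. Lower were 2 of 5 promyelocyte, 2 of 4 progenitor, 2 of 6 monocyte and macrophage and 1 of 3 listed mast cell and basophil markers (Cpa3, -0.72). Both of the 2 listed lymphocyte markers (Nkg7, -1.46, and Cd79a, -4.19) were lower as well. The part of these markers in the result was not tested.

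LPS itself moved no member past the threshold in either genotype. In Vim+/+ neutrophils the members' median response was -0.17, with 49 of 55 negative, and none passed by the deposited DESeq2 test, where 2.17% of all genes passed in either direction. At an unadjusted p under 0.05 there were 3 members, Atp5j2 (-0.40, interval -0.72 to -0.07, adjusted p = 0.260), Uqcr10 (-0.36) and Atp5s (-1.15). Under no difference a share of 0.05 would lie under that threshold, so these 3 values are not read as changes. In Vim-/- neutrophils the median was 0.04, with 39 of 55 positive, and none passed or had an unadjusted p under 0.05, where 2.21% of all genes passed. Over all well-counted genes the median response was 0.004 in Vim+/+ and -0.009 in Vim-/- neutrophils. Centred on genes of like longest and principal transcript, the members' median was -0.07 and -0.05 in Vim+/+ neutrophils. In Vim-/- neutrophils it was 0.04 and 0.03. The intervals put a bound on what was missed. For Cox4i1 the response was -0.25 (interval -0.57 to 0.08) in Vim+/+ and 0.04 (interval -0.24 to 0.31) in Vim-/- neutrophils, and for Atp5b it was -0.10 (interval -0.39 to 0.20) and 0.14 (interval -0.11 to 0.38). The same libraries answered LPS elsewhere, as with the formyl peptide receptor Fpr1, which rose by 1.33 and 1.43.

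**Figure D4:**
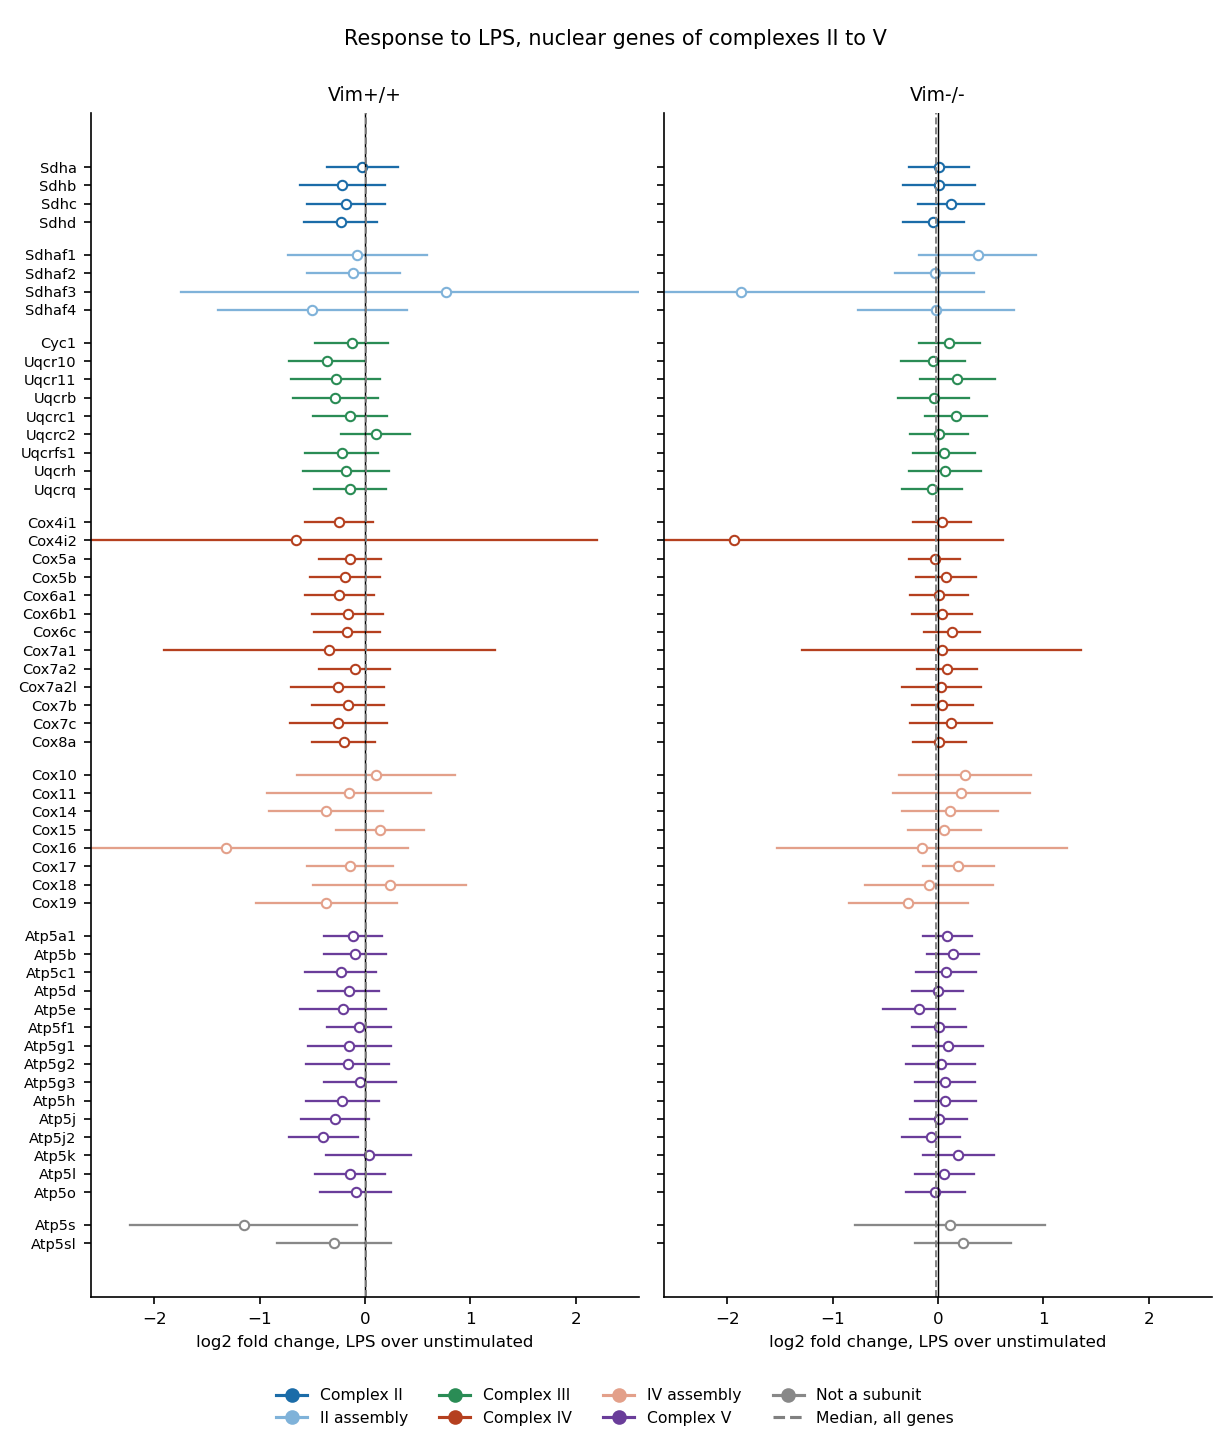
Log2 fold change of LPS over unstimulated neutrophils (horizontal axes) for each of the 55 members (rows, grouped by complex and role), Vim+/+ on the left and Vim-/- on the right. Lines are 95% intervals (a few run past the axis), no point is filled because none passed at an adjusted p under 0.05, and the dashed line is the median of all genes. Most points lie left of 0 in Vim+/+ (49 of 55) and right of 0 in Vim-/- neutrophils (39 of 55).

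The difference between these responses was tested from the deposited values of both. Its standard error takes both responses as independent, although they come from the same model, so the test is approximate. Subtracting the Vim+/+ from the Vim-/- response gave a median of 0.24 over the members, with 50 of 55 positive, beside -0.04 over all genes. No member passed (two-sided normal test on the deposited fold changes and standard errors, Benjamini-Hochberg over all genes), none had an unadjusted p under 0.05, and 0.0764% of all genes passed. By arithmetic this quantity is also the genotype difference with LPS minus that without it, so it restates the smaller genotype difference after LPS. The largest value among complex III was 0.46 for Uqcr11 (interval -0.09 to 1.01), and for Cox4i1 it was 0.28 (interval -0.14 to 0.70), for Atp5h 0.29 (interval -0.17 to 0.74) and for Sdhb 0.22 (interval -0.31 to 0.75). In the genotype comparison with LPS, 1416 of 12837 genes tested passed in either direction, 559 of them lower. Of 11 listed regulators, Pprc1 (0.77, adjusted p = 0.0197) and Ppargc1b (4.98 at a mean normalised count of 75.6, adjusted p = 0.0138) were higher in Vim-/- neutrophils with LPS, and neither had passed without it. The difference of the responses did not pass for either of them.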

How the data were processed

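Libraries of mRNA from 10 samples were compared by the authors, who removed adapters with cutadapt 4.4, aligned and quantified reads on mm10 with STAR 2.7.10b, and fitted DESeq2 1.26.0 with 4 covariates of unwanted variation. The gene annotation and strand setting were not given in the sources used here, so members whose reads could be shared with a pseudogene, a paralog or an overlapping gene are uncertain. Of each deposited table, the signal used was the mean normalised count made by the authors, the log2 fold changes and standard errors were those of the authors' model, and the adjusted p-values were deposited by the authors from its Wald test. These columns are the authors' own comparisons and were used because no values per library were analysed here. The depth per library is therefore unknown.

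Members were read from the 4 tables by symbol. Genotype signs were turned to Vim-/- over Vim+/+, intervals are the fold change ± the 95% normal quantile of its standard error, and the difference of LPS responses was tested from both fold changes. Transcript lengths came from GENCODE M21 (12320 genes, 94.1%, all 55 members), positions and promoters from RefSeq on GRCm38.p6. Scripts ran in Python 3.11.15 (pandas 2.3.3; scipy 1.17.1; numpy 2.4.6). Genes were named by rule: core subunits, the highest and lowest statistics of each complex, members that passed, members with a mean normalised count under 100, and isoform families. The members and all lists were chosen with earlier results of these data known.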

Additional observations from a re-analysis of the deposited data

How the results depend on the processing

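Limits: the fits could not be repeated because the tables hold no values per library, so leaving out a library was not run. No paired analysis was possible because the columns carry no replicate. The 22 members lower in unstimulated Vim-/- neutrophils were 22 with Benjamini-Hochberg over every gene or a count minimum of 100, and 28 centred on well-counted genes, but 6 centred on the longest and 4 on the principal transcript, 0 with Wald statistics centred and scaled, and 0 with an absolute log2 fold change over 1. The median of all 55 members in that comparison, -0.38, became -0.21 and -0.18 under the length centrings. Their median LPS response in Vim+/+ neutrophils, -0.17, became -0.07 and -0.05. The 2 members that fell with LPS were 3 centred on well-counted genes, 1 with the longest transcript, and 0 with the principal transcript, centred and scaled statistics or a fold over 1. Counts of 0 for LPS responses and their difference were 0 under every alternative run. The cause of these changes was not tested.

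Signs turned in members that passed neither in the deposited test of that comparison nor under the alternative. Unstimulated, the longest and the principal transcript gave 0.114 and 0.117 for Sdhd, 0.0928 and 0.0907 for Uqcr10, 0.120 and 0.118 for Uqcrb, 0.0553 and 0.0533 for Cox4i2, 0.161 and 0.159 for Cox14, and 0.171 and 0.169 for Atp5g3, and well-counted centring gave -0.0357 for Sdhaf4, -0.0604 for Uqcrc2 and -0.0521 for Cox11. With LPS, the longest and the principal transcript gave 0.0317 and 0.0538 for Uqcr11, 0.0226 and 0.0164 for Atp5b, and 0.108 and 0.130 for Atp5g3. The longest alone gave 0.0232 for Uqcrfs1 and 0.0276 for Cox18, the principal alone 0.0149 for Cox6a1 and 0.0189 for Cox8a, and well-counted centring -0.0088 for Uqcrb and -0.0056 for Cox7c.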
